A study of Mus musculus with 19 samples.

Results

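Platelet-derived growth factor (PDGF) ligands, their receptors and the genes by which pericytes are commonly recognised were followed through whole mouse ovaries lacking the hedgehog ligands Dhh, Ihh or both. The set holds 10 genes: the ligands Pdgfa, Pdgfb and Pdgfc, the receptors Pdgfra and Pdgfrb, and Rgs5, Cspg4, Notch3, Mcam and Abcc9. They were chosen by symbol, and every Affymetrix probe set annotated to one of them alone was used, 23 in all. All 10 genes passed the filter on dim probe sets, among 12379 genes tested and 18193 genes with such a probe set. The Affymetrix design holds 45101 probe sets, and 19 arrays were analysed.

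The arrays fell into 4 labelled genotypes from mice 2 months old. Ihh_Dhh_dKO had 3 arrays, Ihh_KO had 4, Dhh_KO had 4 and Ihh_Dhh_dhet had 8, written below as dKO, Ihh_KO, Dhh_KO and dhet. The series' design names the dhet mice as the controls. The labels describe the deletion as ovary-specific for every sample, the dhet mice included, and neither the Cre driver nor the alleles are named in the labels. RNA came from the whole organ, so fewer cells of a type and less RNA per cell cannot be told apart. Nothing in the labels says that arrays of a group came from separate animals, so p-values measure the spread between these arrays.

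The arrays belong to 2 hybridization sets, which the labels do not name. The 3′ to 5′ signal ratio of the spiked BioC control was 0.987 to 1.06 on dKO 1 to 3 and dhet 1 to 4, and 0.685 to 0.781 on the other 12 arrays. Each mutant was therefore set against the controls of its own set, dKO against dhet 1 to 4 and the single knockouts against dhet 5 to 8. Signals are MAS5 values on a linear scale, brought on every array to the same trimmed mean of 500. In the check of the labels, Dhh was 3.85 to 14.2 on the dKO arrays and 5.14 to 25.4 on the Dhh_KO arrays, against 606 to 1371 on the 8 dhet arrays. Ihh was 36.3 to 52.7 in dKO and 12.5 to 43.5 on Ihh_KO 1 to 3, against 139 to 426 in dhet. The array labelled Ihh_KO 4 had a Dhh signal of 2.96 and an Ihh signal of 108, which goes against its label. The changes of the 10 genes in Ihh_KO against dhet 5 to 8 are therefore given with and without it.

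PDGF ligands are secreted dimers that act through 2 receptor tyrosine kinases. PDGF-AA and PDGF-CC act mainly through the alpha receptor on mesenchymal and stromal cells, and PDGF-BB, released by endothelium, recruits pericytes and vascular smooth muscle cells through the beta receptor. Pericytes sit on the outside of capillaries within the basement membrane, and in the ovary the theca layer of growing follicles and the corpus luteum are the most richly supplied with such vessels. Hedgehog ligands made by granulosa cells signal to the surrounding theca and stroma, the compartment in which PDGF receptors are expressed.

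The 250 bases before the annotated start are shown for 3 genes: Rgs5 and Mcam, which had the lowest and the third lowest change in dKO among the 10, and Pdgfc, the one member whose window held a CArG box. They are from RefSeq's GRCm38.p6 annotation. The Rgs5 window is chr1:169655251-169655500 on the plus strand, ahead of a gene listed to position 169695813. The Mcam window is chr9:44134408-44134657 and the Pdgfc window chr3:81036166-81036415, both on the plus strand and directly ahead of the gene. Capitals mark the CArG box in Pdgfc, whose match begins 17 bases before the start, and the windows of Rgs5 and Mcam held none of the motifs searched.
Rgs5: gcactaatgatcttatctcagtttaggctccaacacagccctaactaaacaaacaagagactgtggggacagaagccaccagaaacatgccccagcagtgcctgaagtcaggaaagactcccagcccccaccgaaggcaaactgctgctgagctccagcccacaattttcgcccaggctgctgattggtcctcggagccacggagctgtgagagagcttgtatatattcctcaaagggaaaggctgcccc
Mcam: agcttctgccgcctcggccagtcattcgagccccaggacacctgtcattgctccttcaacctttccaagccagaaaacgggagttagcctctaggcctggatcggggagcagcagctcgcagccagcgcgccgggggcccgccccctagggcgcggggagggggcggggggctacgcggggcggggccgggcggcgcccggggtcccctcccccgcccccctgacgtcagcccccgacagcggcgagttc
Pdgfc: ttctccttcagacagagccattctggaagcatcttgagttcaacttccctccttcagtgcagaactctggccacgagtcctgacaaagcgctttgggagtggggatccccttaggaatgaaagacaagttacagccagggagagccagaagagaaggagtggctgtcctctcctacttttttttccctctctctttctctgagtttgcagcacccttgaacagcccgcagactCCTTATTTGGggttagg

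Promoter windows were found for 8 of the 10 genes, 9 windows in all, since Pdgfa has 2. Motifs were searched on both strands. The GLI motif GACCACCCA, the site bound by the transcription factors at the end of the hedgehog pathway, was in none of the 9 windows and in 0.225% of 32851 windows of all genes. Its core, CCACCC, lies within that motif and is common, at 28.1% of all windows. It occurred 3 times in the Abcc9 window, in 2 overlapping copies in that of Pdgfra, and once in each Pdgfa window. The CArG box, bound by serum response factor, was in 1.47% of windows of all genes. The RBPJ motif TGGGAA, through which Notch receptors act, was in 21.6% of all windows and once each in Abcc9 and in 1 Pdgfa window. A match is a description of these letters only.

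Of the 10 genes, 7 were lower and 3 higher in dKO than in dhet 1 to 4, and none passed the threshold of an adjusted p under 0.05 (limma, Benjamini-Hochberg over 12379 genes). In that comparison 374 genes were called, 3.02% of those tested, with 1.57% called higher and 1.45% called lower. At an unadjusted p under 0.05 there were 3 of the 10, Rgs5, Pdgfra and Mcam, against 16.1% of all genes. The median log2 change of the 10 was -0.32, against 0.02 over all genes. Log2 changes refer to log2(signal + 7.02) and understate the change of dim probe sets.

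**Figure D1:**
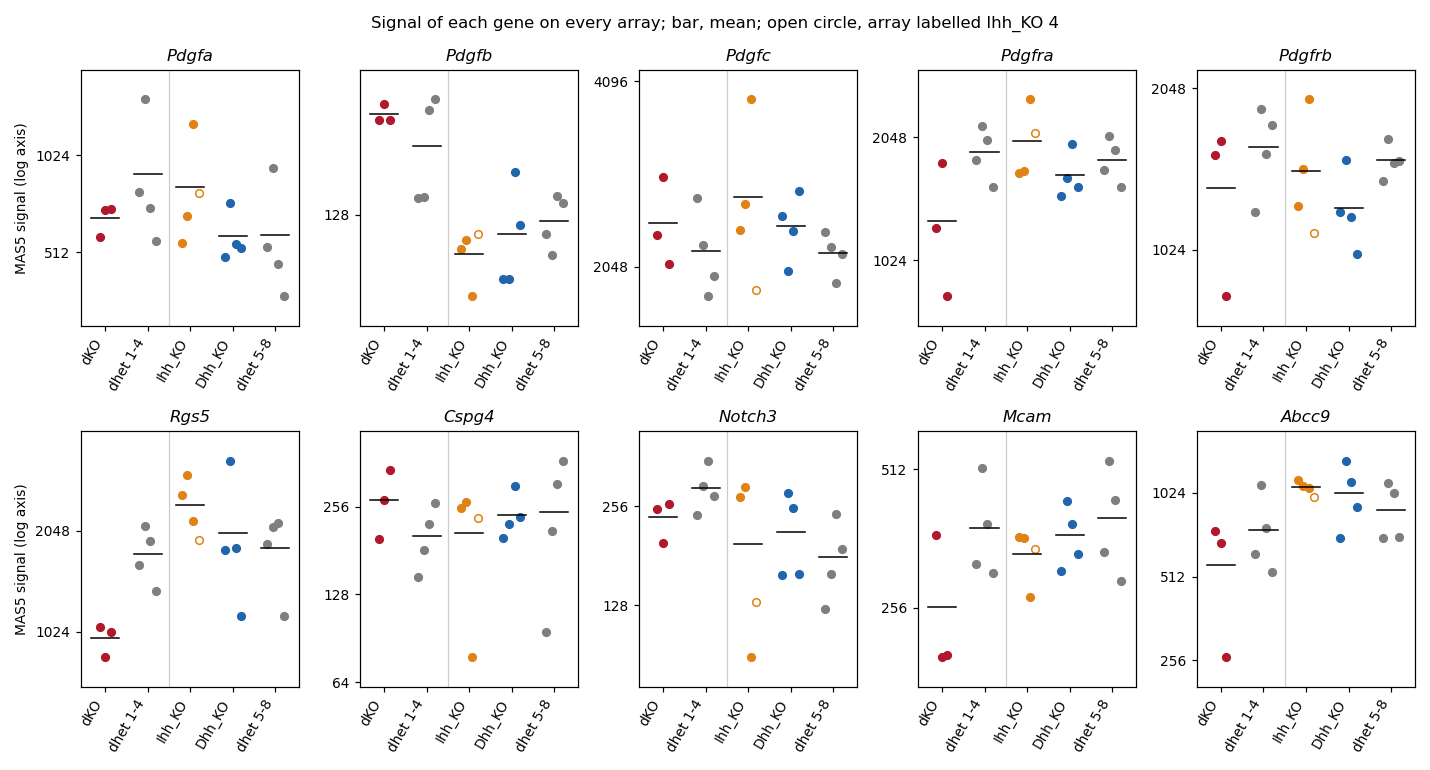
MAS5 signal (log axis) of the 10 genes on every array, 1 panel a gene, at the probe set of highest mean; columns are dKO and dhet 1 to 4, then Ihh_KO, Dhh_KO and dhet 5 to 8, each point 1 array and each bar the arithmetic mean. The open circle is the array labelled Ihh_KO 4. The 3 dKO arrays lie below all 4 dhet arrays of their set for Rgs5 alone.

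Among the ligands, Pdgfa had signals of 569, 691 and 695 in dKO, against 789, 1530, 701 and 554 in dhet 1 to 4. All 3 dKO arrays lay within the range of the controls, of which the highest, dhet 2, stood at 2.76 times the lowest, dhet 4. The log2 change was -0.35 ± 0.33 (SE, adjusted p = 0.66). Pdgfb, the ligand released by endothelium, had 194, 209 and 194 in dKO, against 138, 139, 202 and 212. The dKO arrays were tightly grouped at the upper end of the control range, and the log2 change was 0.22 ± 0.20 (adjusted p = 0.64). Pdgfc had 2306, 2865 and 2070 in dKO, against 2644, 2224, 1834 and 1977 in dhet 1 to 4, overlapping throughout, with a log2 change of 0.15 ± 0.18 (adjusted p = 0.75).

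The alpha receptor was lower in dKO on all of its probe sets. Pdgfra had signals of 1231, 1766 and 837 on the 3 dKO arrays, against 1801, 2177, 2011 and 1546 on dhet 1 to 4. Arrays dKO 1 and dKO 3 lay below every control, while dKO 2 lay inside the control range. The log2 change was -0.61 ± 0.20, a 0.655-fold level, with an adjusted p of 0.12, and its 95% interval was -1.03 to -0.19. The dimmest of its 3 probe sets, 1438946_at, had 74.9, 117 and 70.2 in dKO, against 184, 187, 195 and 126. There the groups did not overlap and the log2 change was -0.95 ± 0.28, with an adjusted p of 0.097 when probe sets were tested one by one. That was the smallest adjusted p among the 23, in a test that called 2.15% of probe sets. At the brightest probe set of each gene, 6.07% of all genes had dKO arrays wholly below the controls. The beta receptor Pdgfrb, which pericytes need for recruitment, had 1538, 1634 and 840 in dKO, against 1204, 1877, 1546 and 1749 in dhet 1 to 4. On this probe set, the brighter of its 2, only dKO 3 lay below the controls. The log2 change there was -0.29 ± 0.22 (adjusted p = 0.56). The dimmer one, 1417148_at, had 867, 917 and 575 in dKO, against 877, 1144, 1095 and 1124. On it dKO 1 and dKO 3 lay below every control, and the log2 change was -0.45 ± 0.15. Its adjusted p was 0.16 when probe sets were tested one by one.

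Rgs5, a regulator of G protein signalling that is among the most abundant pericyte transcripts, had the lowest log2 change of the 10 in dKO. Its signals were 1058, 861 and 1023 in dKO, against 1616, 2115, 1904 and 1353 in dhet 1 to 4. The groups did not overlap, which held in the lower direction for 6.07% of all genes and for Rgs5 alone among the 10. In the higher direction it held for 7.08% of all genes and for no member. The log2 change was -0.81 ± 0.28, a 0.569-fold level, with a 95% interval of -1.39 to -0.24 and an adjusted p of 0.13. By p it ranked 791 among all genes. Of its 4 probe sets, 3 did not overlap between dKO and dhet 1 to 4, and the fourth, 1420941_at, had 722, 667 and 544 against 693, 1098, 899 and 563. The change ranged from -0.81 to -0.30 over the 4 probe sets. These read the same transcripts, and the share of all probe sets without overlap is not given here.

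**Figure D2:**
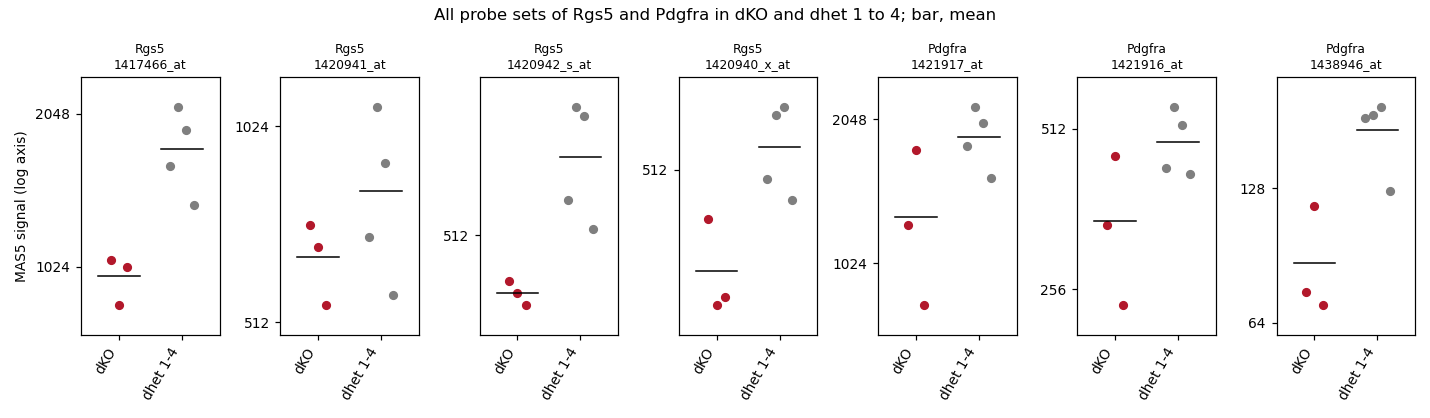
MAS5 signal (log axis, its range differing between panels) of the 4 Rgs5 and 3 Pdgfra probe sets on the dKO arrays, left, and dhet 1 to 4, right; points are arrays and bars arithmetic means. In 4 of the 7 panels all 3 dKO arrays lie below all 4 control arrays. Panels of one gene read the same transcripts, and 6.07% of all genes had such a split at their brightest probe set.

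Mcam (CD146), an adhesion molecule of pericytes and endothelium, had 368, 200 and 203 in dKO, against 320, 514, 389 and 305 in dhet 1 to 4. Arrays dKO 2 and dKO 3 lay below every control, and dKO 1 was near the control median of 354. The log2 change was -0.59 ± 0.24 (adjusted p = 0.22). Abcc9, the sulfonylurea receptor subunit of the pericyte potassium channel, had 747, 676 and 263 in dKO, against 620, 1098, 766 and 533. Its change was -0.50 ± 0.31 (adjusted p = 0.46), and -0.03 without dKO 3, both on its brightest probe set. Tested one by one, 1435751_at changed by -0.63 ± 0.26 (adjusted p = 0.27) and 1435752_s_at by -0.73 ± 0.30 (adjusted p = 0.25). On both of these all 3 dKO arrays lay below the control mean. Notch3, the Notch receptor of mural cells, had 251, 198 and 260 in dKO, against 240, 294, 352 and 275, a change of -0.28 ± 0.33 (adjusted p = 0.74). Cspg4, the NG2 proteoglycan, was on the other side, with 198, 269 and 343 in dKO, against 147, 182, 223 and 263, a change of 0.39 ± 0.41 (adjusted p = 0.70).

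The 3 dKO arrays did not carry the same pattern. Array dKO 3 had 8 of the 10 genes below the mean of its controls, with a median of -0.50, while dKO 1 had 7 below, with a median of -0.03, and dKO 2 had 6 below, with a median of -0.09. At the brightest probe set of each gene, the change without dKO 3 was -0.85 for Rgs5, -0.34 for Pdgfra and 0.01 for Pdgfrb. Without dKO 2 it was -0.88 for Pdgfra, with an adjusted p of 0.025, the one deletion of an array that put a member past the threshold. Rgs5 deviated from the mean of its controls by -0.70, -0.99 and -0.75 on the 3 dKO arrays.

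**Figure D3:**
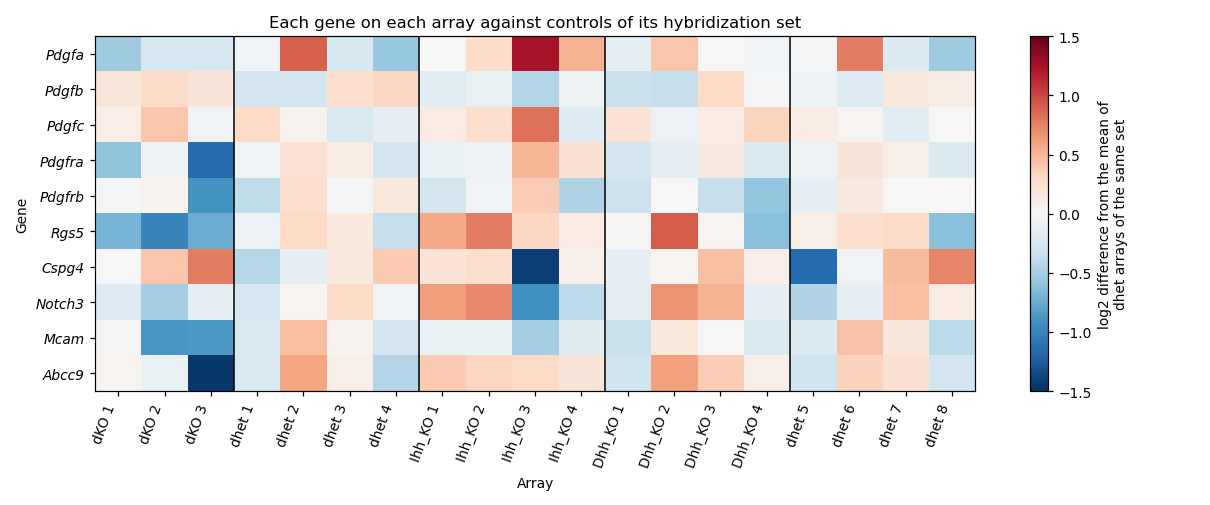
Log2 difference (colour) of each of the 10 genes (rows) on each array (columns) from the mean of the dhet arrays of the same set; columns run dKO, dhet 1 to 4, Ihh_KO, Dhh_KO, dhet 5 to 8. Rgs5 is below that mean on all 3 dKO arrays, Abcc9 is at -1.44 on dKO 3, and Ihh_KO 3 holds both the highest Pdgfa, 1.23, and the lowest Cspg4, -1.41.

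Counted over probe sets, 17 of 23 were lower and 6 higher in dKO. In all 10 genes the probe sets lay on one side, which was certain for Mcam with its 1 probe set. The share of all genes whose probe sets lay on one side is not given here. An unadjusted p under 0.05 was reached by 9 probe sets, of Pdgfra (3), Rgs5 (2), Abcc9 (2), Pdgfrb (1) and Mcam (1), against 14.2% of all 23341 probe sets tested. Probe sets of one gene read the same transcripts and are not independent measurements.

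The single loss of Ihh gave values on both sides. In Ihh_KO against dhet 5 to 8, 6 of the 10 genes were higher and 4 lower, the median was 0.07 against -0.02 over all genes, and none was called. Of the 4 lower ones, Pdgfrb turned from -0.10 to 0.05 when arrays were centred on their medians and to 0.02 without Ihh_KO 4, where 7 were higher and 3 lower and the median was 0.13. In that comparison 2 genes were called by limma, 0.0162% of those tested, and 0 of the 10 had an unadjusted p under 0.05, against 14% of all genes. No member had all 4 Ihh_KO arrays above or below all 4 controls, as 2.29% and 3.99% of all genes did. Rgs5 had 2620, 3006, 2190 and 1921 in Ihh_KO, against 1871, 2097, 2157 and 1145 in dhet 5 to 8. The arrays Ihh_KO 1 to 3 all lay above every control, and Ihh_KO 4 did not. The log2 change was 0.44 ± 0.25 (adjusted p = 0.45) with that array and 0.55 ± 0.27 (adjusted p = 0.34) without it. The other 3 Rgs5 probe sets differed less, at 0.04 to 0.20, and at 0.09 to 0.40 without Ihh_KO 4. On each of them Ihh_KO 1 to 3 overlapped the controls.

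Pdgfa had 547, 661, 1287 and 780 in Ihh_KO, against 532, 933, 469 and 373 in dhet 5 to 8. Ihh_KO 3 was the one array above all controls, and the change was 0.51 ± 0.30 (adjusted p = 0.46). Pdgfc had 2346, 2587, 3826 and 1875, against 2327, 2207, 1923 and 2148. Its first 3 arrays lay above every control and the array labelled Ihh_KO 4 below every control, so that the change was 0.26 ± 0.17 (adjusted p = 0.51) with it and 0.41 ± 0.16 (adjusted p = 0.23) without it. At the brightest probe sets, Rgs5 and Pdgfc were the members for which Ihh_KO 1 to 3 stood wholly above the controls, as 5.1% of all genes did. Their dimmer probe sets all overlapped the controls. Pdgfc read 1143, 1417 and 2126 on 1449351_s_at, against 1396, 1192, 1007 and 1075. On the Rgs5 probe set 1420941_at, Ihh_KO 3 read 578, below the 750 to 1417 of the controls. Without Ihh_KO 4, 48 genes were called, 0.388%, and none of them was a member, while Pdgfc alone had an unadjusted p under 0.05, against 16% of all genes. Of the other members, Pdgfa was at 0.51 without it, Abcc9 at 0.34 against 0.30 with it, Mcam at -0.24 against -0.23, Pdgfra at 0.11 against 0.14 and Notch3 at 0.15 against 0.01. Abcc9 had 1144, 1087, 1071 and 994 in Ihh_KO, against 705, 1111, 1022 and 713, and the Ihh_KO arrays were the more even.

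In Dhh_KO against dhet 5 to 8 no gene was called by limma (0% of 12379), with 1252 at an unadjusted p under 0.05 and none of the 10 among them. No member had Dhh_KO arrays wholly above or wholly below the controls, as 2.19% and 3.27% of all genes did. The median of the 10 was 0.07, against -0.03 over all genes. The smallest p was that of Pdgfrb, which had 1205, 1504, 1180 and 1005 in Dhh_KO, against 1375, 1650, 1489 and 1502. Its change was -0.31 ± 0.20 (adjusted p = 0.63). Rgs5 ranged from 1142 to 3306 in Dhh_KO, around the 1145 to 2157 of the controls, with a change of 0.09 ± 0.25. Pdgfra had 1469, 1625, 1969 and 1545 in Dhh_KO, against 1705, 2055, 1903 and 1546, a change of -0.13 ± 0.19 with a 95% interval of -0.52 to 0.26. The 3′ to 5′ signal ratio of Gapdh was 2.081 to 2.786 on the Dhh_KO arrays, above the 1.887 to 2.015 of dhet 5 to 8. On the Ihh_KO arrays it was 1.903 to 2.367. The part of this ratio in the values of the 10 genes was not tested.

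Pdgfb gave different answers on its 2 probe sets. On the brighter one, 1450414_at, signals were 110, 114, 89.6 and 117 in Ihh_KO and 96.7, 96.4, 155 and 122 in Dhh_KO, against 117, 107, 139 and 135 in dhet 5 to 8. On the dimmer, 1450413_at, they were 74.7, 79.7, 43.6 and 94.2 in Ihh_KO and 58.7, 63.3, 115 and 84.1 in Dhh_KO, against 129, 161, 161 and 128. There every single-knockout array lay below every control. At the brightest probe set of each gene, 3.99% of all genes did so in Ihh_KO and 3.27% in Dhh_KO. The log2 change on 1450413_at was -0.96 ± 0.22 in Ihh_KO (adjusted p = 0.11) and -0.83 ± 0.22 in Dhh_KO (adjusted p = 0.27), against -0.20 and -0.10 on the brighter probe set. Without Ihh_KO 4 the Ihh_KO change was -1.09 ± 0.24 on the dimmer (adjusted p = 0.056, with 0.381% of probe sets called) and -0.24 on the brighter. Probe sets tested one by one were called in 0.0343% of cases for Ihh_KO and in 0% for Dhh_KO. In dKO the dimmer probe set was 0.16 ± 0.24 above dhet 1 to 4. Both single knockouts share the same 4 controls. On this probe set dhet 5 to 8 read 128 to 161 and dhet 1 to 4 read 88.6 to 114, while on the brighter one dhet 5 to 8 averaged lower.

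The dimmer Cspg4 probe set, 1450944_at, was also lower in Ihh_KO, with 82.8, 65.6, 47.9 and 59.8 against 134, 119, 128 and 95.5 in dhet 5 to 8. The groups did not overlap, as in this direction for 3.99% of all genes at their brightest probe set. The change was -0.84 ± 0.27 (adjusted p = 0.18), or -0.82 ± 0.30 (adjusted p = 0.20) without Ihh_KO 4. In Dhh_KO this probe set had 87.2, 69.6, 116 and 46.6, all below the control mean, a change of -0.59 ± 0.27 (adjusted p = 0.45). In dKO it had 59.5, 99.2 and 76.6, against 40, 48.4, 49.3 and 88.1 in dhet 1 to 4, a change of 0.46 ± 0.29 (adjusted p = 0.52). As with Pdgfb, dhet 5 to 8 read higher on this probe set than dhet 1 to 4, and the Ihh_KO values lay within the range of dhet 1 to 4. The brighter probe set overlapped, at 253, 265, 77.8 and 234 against 94.9, 211, 307 and 369. Its change was -0.21 ± 0.38, and -0.32 without Ihh_KO 4. Signals of these dim probe sets lay close to the filter, which stood at 69.4.

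**Figure D4:**
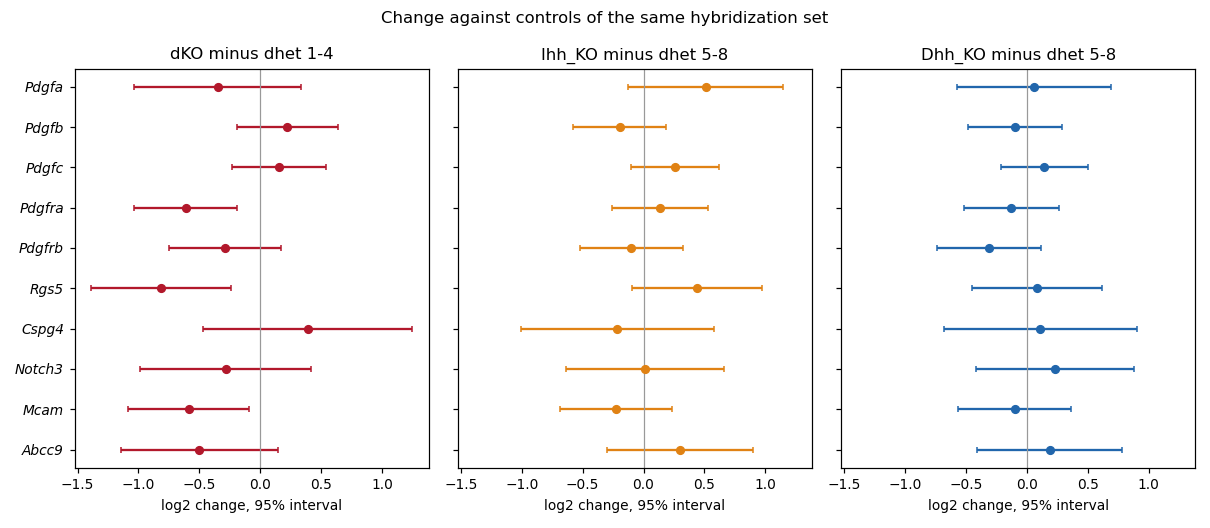
Log2 change (point) with 95% interval (bar) of each gene in dKO against dhet 1 to 4 (left), Ihh_KO against dhet 5 to 8 (middle) and Dhh_KO against dhet 5 to 8 (right). In dKO the intervals of Pdgfra, Rgs5 and Mcam lie below 0 before adjustment, and in both single knockouts every interval crosses 0.

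The 2 single knockouts were compared directly as well, since they share a hybridization set. In Ihh_KO against Dhh_KO no gene was called by limma (0%), with 1440 at an unadjusted p under 0.05, of which none was a member. The widest differences among the 10 were 0.45 ± 0.30 for Pdgfa (adjusted p = 0.59) and 0.36 ± 0.25 for Rgs5 (adjusted p = 0.62). Without the array labelled Ihh_KO 4, 26 genes were called, 0.21%, again with no member. Pdgfa then differed by 0.45 and Rgs5 by 0.46.

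Whether the double loss differed from a single loss was tested as the dKO change minus the single-knockout change, each against its own controls. For Rgs5, at its brightest probe set, the dKO change was -0.81 and the Ihh_KO change 0.44. The difference was -1.26 ± 0.37 with a 95% interval of -2.04 to -0.47. The adjusted p was 0.12, in a comparison in which 49 genes were called, 0.396%. Without Ihh_KO 4 the difference was -1.36 ± 0.39 (adjusted p = 0.11). The dimmer Rgs5 probe sets, tested one by one with Ihh_KO 4 included, differed less. The difference was -0.95 on 1420942_s_at (adjusted p = 0.30), -0.77 on 1420940_x_at (adjusted p = 0.44) and -0.34 on 1420941_at (adjusted p = 0.75). Pdgfra differed by -0.75 ± 0.27 (adjusted p = 0.18), Pdgfa by -0.86 ± 0.45 (adjusted p = 0.33) and Abcc9 by -0.80 ± 0.42 (adjusted p = 0.33). Without Ihh_KO 4 these differences were -0.72, -0.86 and -0.84. Against the Dhh_KO change, 75 genes were called, 0.606%, and Rgs5 differed by -0.90 ± 0.37 (adjusted p = 0.24). No member was called in either. At an unadjusted p under 0.05 there were 2 of the 10 against the Ihh_KO change, Rgs5 and Pdgfra, beside 17.4% of all genes, and 1 of the 10 against the Dhh_KO change, Rgs5, beside 16.1%. With the matched dhet arrays as a random block, described with the controls, the Rgs5 difference from Ihh_KO passed the threshold at the same size (-1.26, adjusted p = 0.024), in a fit that called 697 genes.

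Levels of several genes moved between the sets in the controls themselves. From dhet 5 to 8 minus dhet 1 to 4 the mean log2 difference was -0.70 for Notch3, -0.60 for Pdgfa and -0.43 for Pdgfb, while the other 7 genes lay within 0.26 of 0. Each of dhet 5 to 8 also followed one of dhet 1 to 4. The deviations of dhet 1 and 5, 2 and 6, 3 and 7, and 4 and 8 from their set means correlated at 0.54 to 0.77 across all genes, which are not independent replicates, and every other match at -0.64 to 0.16. For Pdgfa the difference within these pairs varied with an SD of 0.07, against SDs of 0.56 in dhet 5 to 8 and 0.62 in dhet 1 to 4. The pair SD was below both set SDs for 6 of the 10 genes. In 7 of the 10 the highest and the lowest control were the same pair in both sets. Each mutant was compared with the 4 controls of its own set, but all 8 dhet arrays entered the estimate of the spread as separate arrays, without a block for these pairs.

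Of the other genes of the pathway, Pdgfd, a further ligand, and Pdgfrl, a receptor-like protein without a kinase domain, were both measured. Pdgfrl had 81.4, 95.6 and 117 in dKO, against 294, 371, 306 and 151 in dhet 1 to 4, a change of -1.40 ± 0.39 that missed the threshold (adjusted p = 0.061) but passed it under 7 alternatives, at adjusted p-values down to 0.01. No dKO array overlapped the controls. Pdgfd changed by -0.08 ± 0.41. Of 20 listed transducers of the receptors, from adaptors to kinases and phosphatases, 1 rose and 0 fell in dKO. That one was Nck2, an SH2 and SH3 adaptor, with 2358, 2618 and 2198 in dKO, against 1770, 1639, 1893 and 1801, a change of 0.43 ± 0.08 (adjusted p = 0.0071). When arrays were centred on their medians the change was 0.40 and the call was lost (adjusted p = 0.28). The median of the 20 was 0.06 in dKO, 0.06 in Ihh_KO and 0.05 in Dhh_KO, and none was called in a single knockout, where the smallest p belonged to Nck2 in Ihh_KO (0.30, adjusted p = 0.14, and 0.33, adjusted p = 0.082, without Ihh_KO 4) and to Plcg1, phospholipase C gamma, in Dhh_KO (0.26, adjusted p = 0.39).

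Other genes of mural cells, the pericytes and smooth muscle cells of vessel walls, were taken from a list. Of 20 listed, 19 had a probe set and 14 passed the filter. Of those 14, 2 fell, 0 rose, and 11 lay below 0, with a median of -0.54. The 3 above 0, none of them called, were P2ry14 (0.74), Anpep (0.72) and Gucy1a1 (0.36). Anpep had 1395, 1020 and 701 in dKO, against 617, 618, 591 and 598 in dhet 1 to 4. Its groups did not overlap, as in the higher direction for 7.08% of all genes. Lama2, the laminin alpha 2 chain of vessel and muscle basement membranes, had 388, 442 and 282 in dKO, against 628, 965, 825 and 1035 in dhet 1 to 4. The groups did not overlap, and Lama2 fell by 1.20 on the log2 scale (SE 0.19, adjusted p = 0.0018). Its change in Ihh_KO was -0.59 ± 0.17 (adjusted p = 0.17; -0.71, adjusted p = 0.083, without Ihh_KO 4) and in Dhh_KO 0.09 ± 0.17, and the dKO change differed from that in Dhh_KO by -1.29 (adjusted p = 0.028). Aoc3, a vascular amine oxidase and adhesion protein, had 794, 461 and 606 in dKO, against 1682, 1095, 1137 and 2239, and fell by 1.27 on the log2 scale (SE 0.27, adjusted p = 0.014). Kcnj8, the pore subunit that pairs with the Abcc9 product, had 340, 248 and 140, against 365, 464, 410 and 336, highest on dKO 1 and lowest on dKO 3 as was Abcc9, with a change of -0.76 ± 0.21 (adjusted p = 0.061). The 5 listed genes below the filter were Higd1b, Vtn, Tbx18, Foxf2 and Itga7, and Tbx18 was at or near background on every array, at 0.85 to 14.9.

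**Figure D5:**
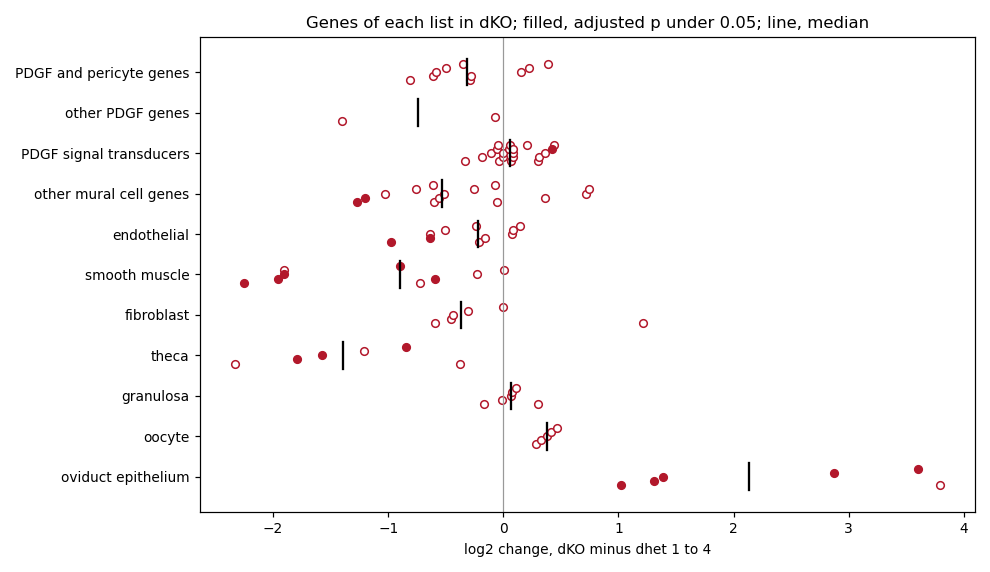
Log2 change in dKO against dhet 1 to 4 for every tested gene (circle) of the set and of the lists, 1 row a list; filled circles have an adjusted p under 0.05 and the black line is the list's median. None of the 10 PDGF and pericyte genes is filled, and smooth muscle and theca have the lowest medians of the lists with over 2 genes.

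Markers of other cells moved in the same arrays. Of the 10 endothelial markers 2 fell and 0 rose in dKO, with a median of -0.22, and their summed signal was 3986 to 5402 in dKO, against 5422 to 7206 in dhet 1 to 4. Of the 9 smooth muscle markers 5 fell, with a median of -0.90 and sums of 10644 to 20722 in dKO against 22715 to 28370 in dhet 1 to 4. Markers of fibroblasts, a cell type commonly marked by Pdgfra, had 0 of 6 called, a median of -0.37 and overlapping sums. Of the steroidogenic genes listed for theca 3 of 6 fell, with a median of -1.39. Those called were Cyp11a1, Star and Fdx1. Cyp17a1 was not called, and its 565, 303 and 76.8 in dKO lay within the 74.1 to 8765 of dhet 1 to 4. Granulosa markers had 0 of 6 called and a median of 0.07, and oocyte markers 0 of 5 and a median of 0.38. Oviduct epithelium markers, 6 in number, had 5 that rose and a median of 2.13, with sums of 4583 to 16466 in dKO, against 2061 to 3143 in dhet 1 to 4.

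The oviduct marker Ovgp1 had 3730, 53.6 and 4679 on dKO 1, 2 and 3, against 409, 26.0, 40.4 and 38.2 on dhet 1 to 4. On dKO 2, where Ovgp1 lay within the range of the controls, Krt8 was 1558, Krt18 1495, Epcam 1111 and Wfdc2 139, each above all of dhet 1 to 4, and Plet1, at 227, was within their range. The summed signal of the listed oviduct epithelium markers was 10539, 4583 and 16466 on dKO 1, 2 and 3, above the controls on all 3. On dKO 2 its largest terms were Krt8, Krt18 and Epcam, not Ovgp1. Rgs5 was at its lowest, 861, on dKO 2, and Pdgfra, at 1766 on the same array, was within its own control range. Array dKO 3, with the most Ovgp1, also had the lowest endothelial, fibroblast and mural sums of the dKO arrays and the lowest Abcc9, Pdgfra and Pdgfrb. Array dKO 1, with an Ovgp1 of 3730, had the highest endothelial, fibroblast and mural sums of the dKO arrays, at 5402, 30974 and 7993. The lowest smooth muscle sum, 10644, was on dKO 2. The part of these markers in the values of the 10 genes was not tested. In the single knockouts no gene of any of these lists was called, with or without Ihh_KO 4.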

How the data were processed

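Total RNA of whole ovaries was amplified from a small input and labelled with biotin before hybridization, per the labels' protocols. The deposited values are MAS5 signals, an intensity on a linear scale, per the submitters' processing notes; the MAS5 version is not given in the sources used here. Read from the values, the authors scaled every array to a trimmed mean of 500 (2% trimmed at each end), and the median intensity was 101 to 160. The number of arrays limits the precision.

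Probe sets were named from GEO's platform annotation: 34945 had 1 gene symbol, 932 several and 9160 none, beside 64 Affymetrix controls. Entrez identifiers matched RefSeq's table for 34741, and 0 symbols changed. Before log2, a pseudocount of 7.02 was added, the 10th percentile of the signals. Probe sets whose mean log2 value fell under the 40th percentile were dropped, and each gene took the brightest of its single-gene probe sets. One limma model (version 3.58.1, R 4.3.3; lmFit and eBayes with a trend) held 5 group means over 19 arrays: dKO, dhet 1 to 4, Ihh_KO, Dhh_KO and dhet 5 to 8. Tests were two-sided, with Benjamini-Hochberg adjustment over 12379 genes at 0.05. Data were simulated with each gene's residual spread over all 19 arrays in the model of 5 means. The noise was independent between arrays, so matched dhet arrays were not linked. Of 12379 genes, 100 were changed in dKO at each size. Against dhet 1 to 4, changes of 1 on the log2 scale were recovered in 81% of cases and changes of 2 in 97%, with 11 false calls. The spread of the dKO arrays alone was not simulated.

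The 10 genes were named throughout. Of the background lists every called gene was named, or else the gene of smallest p. Of the cell marker lists the counts and sums were given. The oviduct markers, the named theca markers, Pdgfd, Kcnj8, P2ry14, Anpep, Gucy1a1 and the genes under the filter were added after their values were seen. The 10 genes and the lists were chosen with earlier results of these data known. Same-numbered arrays did not pair: dKO and dhet of the same number correlated at 0.158, 0.274 and 0.0743, and Ihh_KO and Dhh_KO at -0.298 to 0.156. Alternatives changed the scaling, pseudocount, filter, probe set rule, controls, blocks, weights and arrays used. The test of the named list genes under these alternatives, the second set without the array labelled Ihh_KO 4, and the dimmer Pdgfb and Cspg4 probe sets without it, were added after the data were seen. Figures were drawn with matplotlib 3.10.9.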

Additional observations from a re-analysis of the deposited data

Results flagged for a closer look

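Cspg4 on Ihh_KO 3 was 77.8, far below the 234 to 265 of the other Ihh_KO arrays, with a gap to the nearest of 0.895 of the group's range. It was 1 of 40 gene and group combinations of 4 arrays tested, and chance gives about 1 in 20. The same array held the highest Pdgfa, Pdgfc, Pdgfra and Pdgfrb and the lowest Pdgfb, Notch3 and Mcam of its group. Its Gapdh 3′ to 5′ ratio of 2.37 was the highest of the group, while the Dhh_KO arrays ranged from 2.08 to 2.79.

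For 3 genes every dKO array lay on one side of the mean of its own controls and every Ihh_KO array on the other. This was read at the brightest probe set, with the array labelled Ihh_KO 4 included. The share of all genes that did so was not computed. For Pdgfa, Ihh_KO 1 was only 0.01 above its control mean on the log2 scale. On the dimmer Pdgfb probe set dKO 3 read 100, below its control mean of 102. For Rgs5 the split did not hold on 1420940_x_at, 1420941_at or 1420942_s_at. On each of these, 2 of the 4 Ihh_KO arrays lay below their control mean. The dKO change minus the Ihh_KO change was -1.26 for Rgs5, -0.86 for Pdgfa and 0.42 for Pdgfb. None of these differences passed the limma test, with adjusted p-values of 0.12, 0.33 and 0.43.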

How the results depend on the processing

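Of 1812 values of the 10 genes under 32 alternatives, 1744 kept their direction and side of the threshold, 57 changed sign without a call and 11 passed the threshold, under 4 alternatives. With all 8 dhet arrays as one control group, which mixes the hybridization sets, members called numbered 1 for dKO (Rgs5, -0.83, adjusted p = 0.0496), 4 for the dKO change minus the Ihh_KO change and 3 for that minus the Dhh_KO change. With the replicate block, although same-numbered arrays share only a number, Rgs5 was called in dKO (-0.93, adjusted p = 0.037), 1 member among 316 genes, and no member between Ihh_KO and Dhh_KO. With matched dhet arrays as a random block, 1 member was called in the dKO minus Ihh_KO difference (Rgs5, adjusted p = 0.024). Without dKO 2, Pdgfra was called. Over all alternatives the dKO change ranged from -0.93 to -0.62 for Rgs5 (adjusted p 0.037 to 0.36) and from -0.88 to -0.34 for Pdgfra (0.025 to 0.47). At the 60th percentile filter Pdgfb, Cspg4 and Notch3 dropped out.

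Counts of genes called moved more. For dKO the 374 became 594 with all dhet arrays, 700 with array weights, 79 with arrays of 1 set only, 246 at the 60th percentile and 225 under median centring. For Ihh_KO the 2 became 66 with array weights, 0 with arrays of 1 set only (19 without Ihh_KO 4), 0 at the 60th percentile, 0 with the random block, 1 for the mean of probe sets, 1 under median centring, 7 with no filter and 8 for probe sets one by one. For Dhh_KO the 0 became 19 with all dhet arrays, 7 with array weights, and 1 each for the 25th percentile pseudocount and for 1 set without Ihh_KO 4. For Ihh_KO against Dhh_KO the 0 became 2 with array weights, 4 under quantile normalization, 1 at the 25th percentile pseudocount and 10 for 1 set without Ihh_KO 4. The 49 of the dKO minus Ihh_KO difference became 2562 with all dhet arrays, 220 with array weights, 697 with the random block, 25 at the 60th percentile, 21 under quantile normalization and 87 for probe sets one by one. The 75 of the dKO minus Dhh_KO difference became 3220, 406, 672, 42 and 39 under the first 5 of these and 27 under median centring. Leaving out each array in turn gave 128 to 503 for dKO, with 0 to 1 members called, and 128 without dKO 3, 197 without dhet 3, 228 without dKO 2 and 243 without dhet 1. It gave 0 to 58 for Ihh_KO (58 without dhet 8, 48 without Ihh_KO 4 and 0 without any other single array), 0 to 7 for Dhh_KO (7 without dhet 8) and 0 to 26 for Ihh_KO against Dhh_KO (26 without Ihh_KO 4). The dKO minus Ihh_KO difference ranged over 0 to 274 and the dKO minus Dhh_KO difference over 23 to 304, both lowest without dKO 3 and highest without dhet 4. No member was called in these last 5 comparisons when an array was left out.

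Median centring moved the median of all genes from -0.02 to 0.13 in Ihh_KO, and the share of calls that were higher from 51.9% to 40% in dKO, from 61.2% to 28.9% in the dKO minus Ihh_KO difference and from 58.7% to 44.4% in the dKO minus Dhh_KO difference. Pdgfrl passed the threshold in dKO under median centring (adjusted p = 0.030), all dhet arrays (0.024), the random block (0.033), the replicate block (0.024), array weights (0.01), and without dhet 4 (0.022) or dhet 8 (0.017). Kcnj8 passed it with all dhet arrays (0.020), without dhet 4 (0.049) and without dKO 1 (0.0074). Nck2 lost its call under median centring, arrays of 1 set only (adjusted p = 0.084) and the replicate block (0.11). Lama2 lost it with arrays of 1 set only (0.052) and Aoc3 with arrays of 1 set only (0.082), without dKO 2 (0.086) and without dKO 3 (0.062). The causes were not tested.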
